A study of Mus musculus with 16 samples.

Results

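Of the 13115 sites at which wild-type Oct4 had a ChIP-seq summit at day 1, 5 or 7 of reprogramming, 2113 (16.1%) had a summit at day 7 and none at days 1 or 5, and these day 7 only sites are described here. They were selected on the presence of a called summit in each Oct4 library, by joining summits of the 3 Oct4 libraries that lay within 100 bp of the next, on chromosomes 1 to 19, X and Y. They made up 58.5% of the 3612 sites of day 7. The remaining 1499 day 7 sites, which also had a summit at day 1 or 5, are called earlier-bound sites below, and the 2410 sites with a summit at day 5 alone serve as the other comparison. The study followed mouse embryonic fibroblasts of the OG2 line, which carry a GFP reporter of Oct4, on their way to induced pluripotent stem cells. All cells received pMX retroviruses for Sox2 and Klf4 (SK) with a POU factor, and were moved to the chemically defined medium iCD1 at day 0. The POU factor was wild-type Oct4 (Oct4-SK, Oct4 ChIP at days 1, 5 and 7), Oct4defSox2, which carries mutations that disrupt the DNA-dependent dimer with Sox2 (Oct4 ChIP at days 1 and 5), or Oct4 S151M, which dimerises more readily with itself (Oct4 ChIP at day 1). Oct6 M151S, an Oct6 with the reverse exchange, was precipitated with an Oct6 antibody, and its labels give day 1 in the title and day 2 in the description of the sample. Sox2 was precipitated at days 1 and 5 from cells given Oct4-SK, Oct4defSox2-SK and Oct6-SK. Each library came from the whole transduced culture, so a summit does not say in which cells the factor was bound.

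Oct4, encoded by Pou5f1, binds DNA through its POU domain. With Sox2 it recognises the composite SoxOct element found at many enhancers of pluripotent cells, while pairs of POU proteins bind the palindromic MORE element. In fibroblasts entering reprogramming, Oct4 first meets chromatin of the starting cell, where AP-1 and RUNX factors occupy many enhancers, and the endogenous pluripotency genes are activated late.

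Each ChIP was a single library, so all intervals given are 95% intervals for counting error only, and every comparison is between libraries or between sets of sites, not between replicated conditions. The Oct4 libraries held 8199, 4846 and 3614 summits at days 1, 5 and 7, and the other 10 held between 1034 and 101151. The day 7 library had shorter paired-end reads than every other library, and the effects of day and of read length cannot be told apart. The summit scores are −log10 p-values that were not scaled between libraries, and the lowest score was 2.301 for Oct6 M151S against at least 4.00 in the other 12 libraries. The 3 input libraries were not used here.

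The strongest day 7 only sites with an exact SoxOct element are shown as examples. As searched, it was the POU element most often found at these sites, but the elements were allowed unlike numbers of mismatches. SoxOct was searched as CNTTGTN followed directly by ATGCAAAT, the octamer, on both strands within 100 bp of the summit, with up to 2 mismatches. Of the 2113 sites, 13 held it with no mismatch, 99 with 1 and 367 with 2. The 8 with the highest day 7 score among the exact matches are printed 5′ to 3′ on the strand of the match (mm10), with the element in capitals and 18 bp of flank to each side. Regions outside genes are named by the nearest coding gene, which can lie far away, at 451 kb for Slc4a3 and 143 kb for Serpinb8.
Trpc7 region, chr13:57362754-57362804, minus strand: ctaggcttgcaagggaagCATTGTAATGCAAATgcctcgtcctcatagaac
Slc4a3 region, chr1:75997326-75997376, plus strand: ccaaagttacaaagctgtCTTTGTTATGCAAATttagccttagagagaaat
Kif16b intron, chr2:142735868-142735918, minus strand: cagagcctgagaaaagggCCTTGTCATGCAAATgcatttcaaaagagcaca
Gm37240 intron, chr3:85338373-85338423, plus strand: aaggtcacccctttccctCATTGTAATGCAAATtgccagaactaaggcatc
Serpinb8 region, chr1:107732973-107733023, minus strand: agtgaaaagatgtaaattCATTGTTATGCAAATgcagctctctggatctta
Cdk12 intron, chr11:98257030-98257080, minus strand: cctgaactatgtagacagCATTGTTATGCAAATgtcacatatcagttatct
Irx2 region, chr13:72836917-72836967, minus strand: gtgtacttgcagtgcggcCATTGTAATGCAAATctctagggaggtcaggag
Grap2 intron, chr15:80619157-80619207, minus strand: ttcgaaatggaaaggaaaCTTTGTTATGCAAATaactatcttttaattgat

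The day 7 scores of these 8 sites ran from 33.4 at the Trpc7 region to 12.04 at Grap2. The Trpc7 region, 467 kb from the nearest coding start, was the only one of them with a Sox2 summit, scoring 5.43 for Sox2 in Oct4-SK at day 5. The Slc4a3 region scored 23.8 for Oct4defSox2 at day 1 and 7.74 for Oct4 S151M, and the Cdk12 intron 8.26 and 18.8. The Serpinb8 region scored 21.6 and Grap2 6.91 for Oct4 S151M alone. The sites in Kif16b and Gm37240 and that 208 kb from the homeobox gene Irx2 had no summit in any of the other 10 libraries. An exact composite element was therefore seen both at sites that a mutant Oct4 had occupied at day 1 and at sites seen in the day 7 library alone.

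Scores of the day 7 only sites were low within their own library, and since presence in that library chose them, they are given as a description. They ran from 4.03 to 57.6 with a median of 8.06, against a median of 13.5 and a highest score of 266 for earlier-bound sites. Only 1 of the 100 strongest day 7 sites and 92 of the 500 strongest were day 7 only, and 722 (34.2%) scored at least 10. The median distance to the nearest day 1 or day 5 Oct4 summit was 58255 bp. At the edge of the rule, 62 sites lay over 100 and up to 150 bp from an earlier summit and had a median score of 7.62, whereas the 224 earlier-bound sites at 51 to 100 bp had a median of 10.0.

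**Figure D1:**
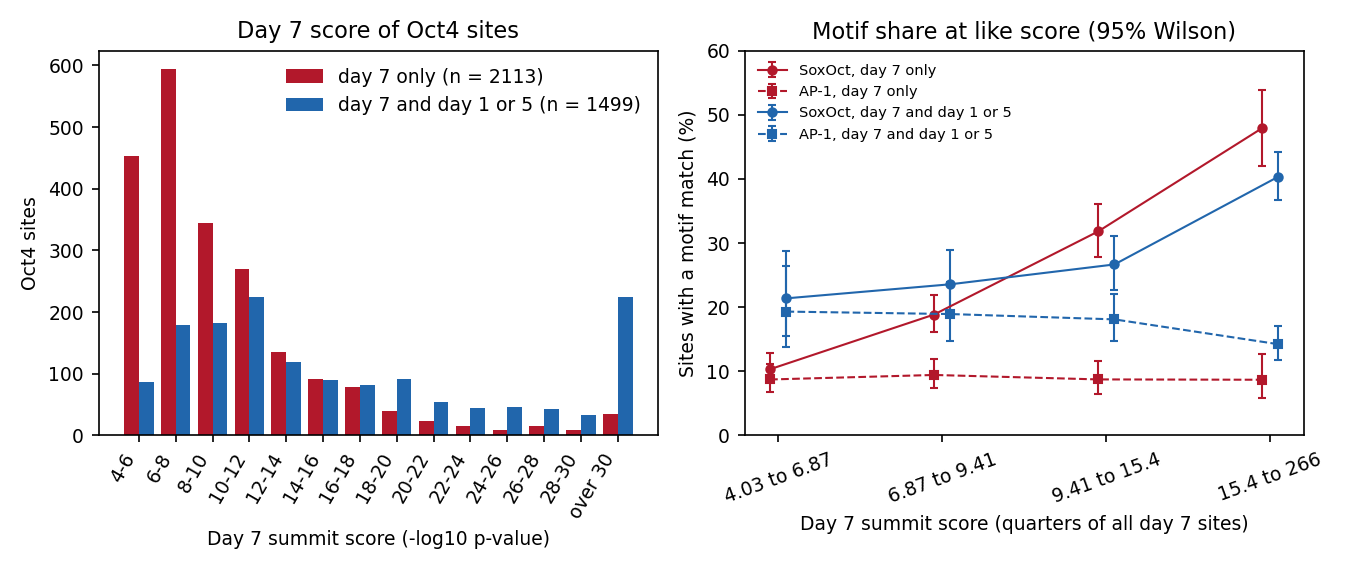
Left, number of Oct4 sites by day 7 summit score (−log10 p-value, bins of 2 units) for the 2113 day 7 only sites and the 1499 earlier-bound sites. Right, share of sites with a SoxOct or AP-1 match in 4 ranges of day 7 score, with 95% Wilson intervals; SoxOct rises with score in both sets, from 10.3% to 47.9% in the day 7 only sites, while their AP-1 share stays between 8.68% and 9.43%.

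SoxOct was found at 479 of the 2113 day 7 only sites, or 22.7% (20.9 to 24.5), where 13.8% of all 13115 Oct4 sites held it. The share was 31.6% at earlier-bound sites, a difference of −8.89 points (−11.8 to −5.94), and 9.0% at day 5 only sites, a difference of 13.7 points (11.6 to 15.8). In windows 2 kb to either side it was 0.781%. The match lay close to the summit, at a median of 24 bp, and 255 of the 479 lay within 25 bp.

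The SoxOct share followed the strength of the site. Among the 528 day 7 only sites with the highest score it was 40.7%, and among the 529 with the lowest it was 8.88%, a difference of 31.8 points (26.9 to 36.6). When day 7 only and earlier-bound sites were compared within 4 ranges of day 7 score, the difference was −11.1 points (−18.7 to −4.66) in the lowest range and 7.56 points (0.501 to 14.6) in the highest. The lower share in the whole set thus did not hold among strong sites. With scores of at least 10 required in every library, the share was 3.06 points higher (−1.41 to 7.52). That setting also took in sites whose day 1 or 5 summits scored below 10.

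As searched, the other POU elements were each less frequent than SoxOct, for which more mismatches were allowed. With no mismatch allowed, 13 sites held SoxOct and 268 the octamer. The octamer ATGCAAAT, a binding site of single POU proteins searched with no mismatch, stood at 268 sites (12.7%, against 9.26% of all Oct4 sites), of which 136 held SoxOct and octamer without MORE. MORE, searched as ATGNAT followed by ATNCAT with up to 1 mismatch, directly or with 1 base between them (MORE+1), was found at 137 sites or 6.48% (5.51 to 7.61), against 13.6% of all Oct4 sites. Earlier-bound sites held it at 16.1%, a difference of −9.66 points (−11.8 to −7.56), and day 5 only sites at 10.6%. Unlike SoxOct, the MORE share did not differ beyond counting error between the strongest and weakest day 7 only sites (7.01% and 5.86%, difference 1.15 points, −1.85 to 4.17). No POU element was found at 1402 sites (66.4%), whose median score was 7.41 against 10.0 for the 323 sites with SoxOct alone.

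Searching without preset motifs gave pieces of the same element. Of 853 8-mers present in at least 2% of windows, the 10 with the highest ratio of window to flank share were led by GTTATGCA (97 sites, 4.59% against 0.260%, ratio 17.6), TATGCAAA (10.9% against 0.828%, ratio 13.2) and GCATAACA (5.35% against 0.426%, ratio 12.6). ATGCTAAT, which differs from the octamer by a single base, came at 7.24% of sites against 0.710% of flanks. Its share at day 5 only sites was 2.95%, and at earlier-bound sites 7.54%.

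AP-1, the factor family of Fos and Jun that is active in fibroblasts, has the motif TGANTCA. It was found at 189 day 7 only sites or 8.94% (7.80 to 10.2), against 16.6% of all Oct4 sites. Earlier-bound sites held it at 16.7% (difference −7.73 points, −10.0 to −5.52) and day 5 only sites at 18.8% (difference −9.81 points, −11.8 to −7.82). The deficit was present in each of the 4 ranges of day 7 score, at −10.6, −9.50, −9.36 and −5.54 points, with every interval below 0. The share was still above that of the flanking windows, 6.22%. The motif of RUNX factors, TGTGGTT, was also less frequent, at 92 sites or 4.35% (7.35% of all Oct4 sites) against 6.34% of earlier-bound and 8.88% of day 5 only sites, and its share in the flanks was 4.90%.

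Of the 19 motifs searched, ESRRB was the only one that was more frequent at day 7 only sites than at earlier-bound sites beyond counting error, while 6 were less frequent. ESRRB is an orphan nuclear receptor of the pluripotency network, and its motif TCAAGGTCA stood at 26 day 7 only sites or 1.23% (0.841 to 1.80), against 0.343% of all Oct4 sites. It was found at 1 earlier-bound site (0.0667%) and at 7 day 5 only sites (0.290%). The differences were 1.16 points (0.666 to 1.73) and 0.940 points (0.444 to 1.53). With windows of 50 bp to each side they were 0.426 and 0.343 points, and with 1 mismatch allowed 3.75 and 3.43 points. All of these lay beyond counting error. Within the 4 ranges of day 7 score, the difference from earlier-bound sites passed counting error in 1 (1.87 points, 0.605 to 3.52) and was 0.224 points (−0.549 to 1.958) in the highest. The share in the flanks was 0.544%. In the flanks of earlier-bound and day 5 only sites it was 0.567% and 0.581%, so both of these sets lay below their own flanks. The 26 matches at day 7 only sites were not centred, with a median distance of 55.5 bp from the summit. Of the 26 summits, 10 lay in soft-masked repeats. Against day 5 only sites, 4 motifs were more frequent, namely SoxOct, octamer, ESRRB and GATA (3.27% against 1.78%, and 2.2% of all Oct4 sites), and 7 were less frequent. The ESRRB comparisons were chosen after the motif shares had been seen. The 3 highest-scoring sites with this motif outside repeats are shown with the motif in capitals.
Nrip1 intron, chr16:76321751-76321795, minus strand: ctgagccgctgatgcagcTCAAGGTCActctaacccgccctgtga
Klf3 region, chr5:64541934-64541978, plus strand: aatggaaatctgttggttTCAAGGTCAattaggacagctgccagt
Stoml1 region, chr9:58279351-58279395, plus strand: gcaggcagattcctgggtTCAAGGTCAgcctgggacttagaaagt

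The site in Nrip1, a corepressor of nuclear receptors, also held SoxOct and scored 15.6 at day 7. The site for which Klf3 is the nearest coding gene, at 262 kb, scored 13.8 and had an Oct4 S151M summit of 11.8, and the site 26.3 kb from Stoml1 scored 13.8 with no summit in another library.

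**Figure D2:**
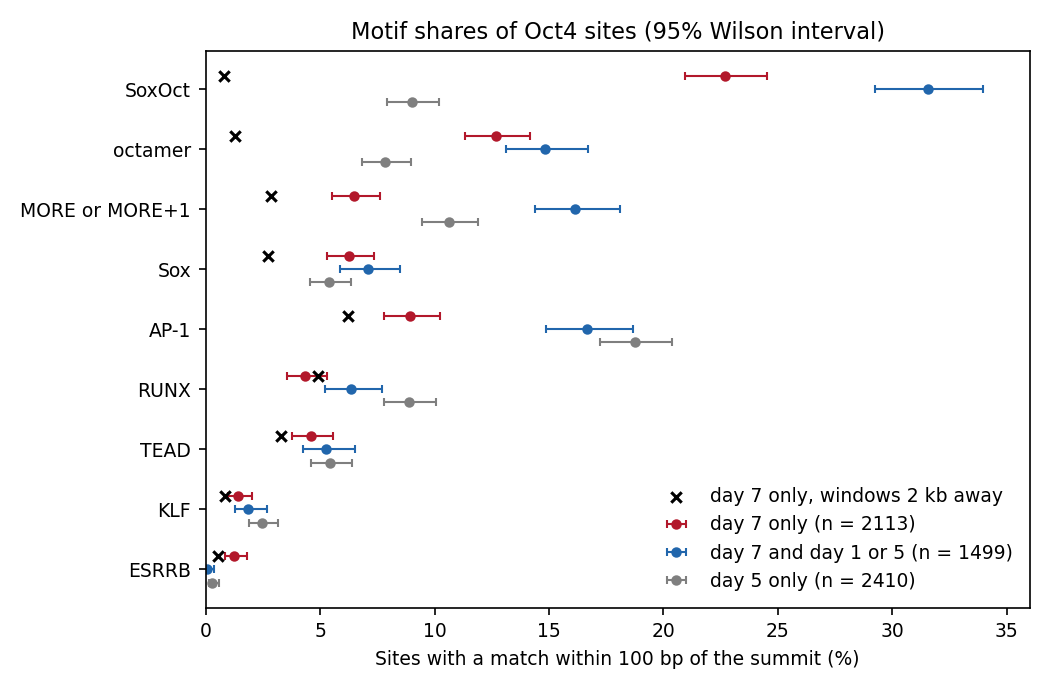
Share of sites (%) with a match to 9 motifs within 100 bp of the summit, for day 7 only, earlier-bound and day 5 only Oct4 sites, with 95% Wilson intervals; crosses give the share in windows 2 kb from the day 7 only sites. SoxOct at the day 7 only sites (22.7%) lies between the other sets, AP-1 (8.94%) lies below both, and ESRRB (1.23%) above both.

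**Figure D3:**
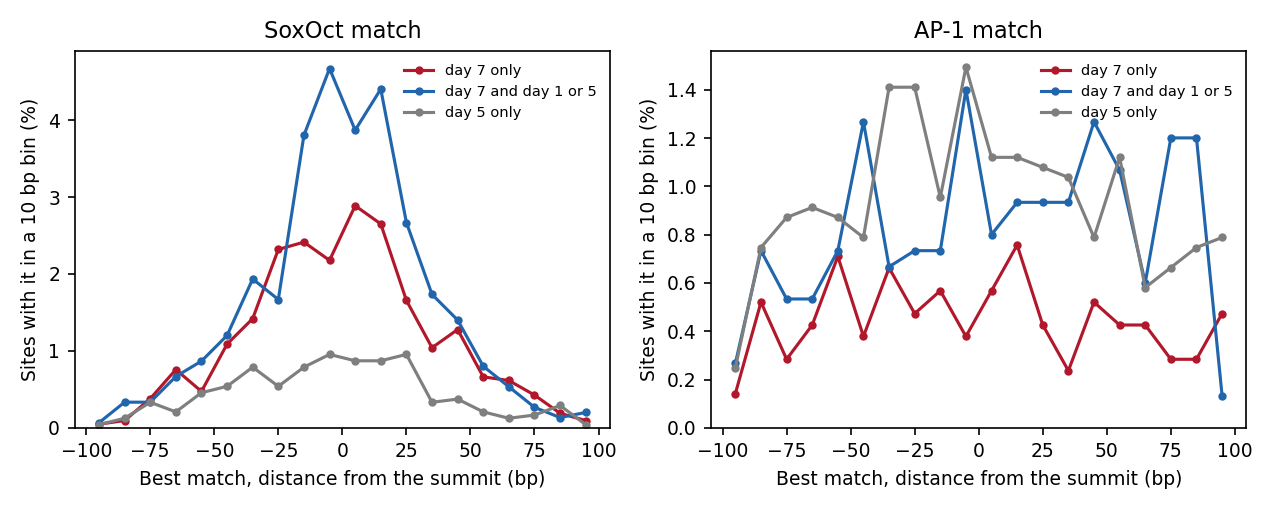
Share of sites (%) whose best SoxOct (left) or AP-1 (right) match falls in each 10 bp bin of distance from the summit, for the 3 sets of sites. SoxOct piles up at the summit of day 7 only sites, with 53.2% of matches within 25 bp, while AP-1 is spread over the window, with 31.2% within 25 bp.

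Occupancy in the other 10 libraries asks whether another POU factor, or Sox2, was found at the same place. A site counted as occupied when a summit of the library lay within 100 bp of any of its Oct4 summits. Earlier-bound sites hold summits of more than 1 Oct4 library and so could be searched over a wider stretch. By this measure 1296 day 7 only sites (61.3%, 59.2 to 63.4) had no summit in any of the 10, against 25.4% of all Oct4 sites, 5.47% of earlier-bound and 43.2% of day 5 only sites. A further 458 were occupied in 1 library, 249 in 2, and 23 in 5 or more. In the range of highest day 7 score, 40.8% of day 7 only sites and 4.59% of earlier-bound sites had no other summit. By their titles, all 10 libraries were taken at day 1 or 5. Earlier-bound and day 5 only sites were chosen for an Oct4 summit on those days, and day 7 only sites for none. The rule itself thus favours lower occupancy of day 7 only sites. Its part in these differences and those below was not tested.

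The Oct4 mutants accounted for most of the occupancy. Oct4 S151M at day 1 had a summit at 604 day 7 only sites or 28.6% (26.7 to 30.5), where 63.3% of all Oct4 sites were occupied. The share was 89.2% at earlier-bound sites (difference −60.6 points, −63.0 to −58.0) and 39.1% at day 5 only sites (difference −10.5 points, −13.2 to −7.75). Oct4defSox2 at day 1 occupied 406 or 19.2% (17.6 to 20.9), against 46.8% of all Oct4 sites, 75.8% of earlier-bound and 31.5% of day 5 only sites. Of these, 267 were shared by both mutants. With equal numbers of the strongest summits taken from each of the 10 libraries, the differences from earlier-bound and day 5 only sites shrank to −7.05 and −1.03 points for Oct4 S151M and to −21.4 and −2.32 points for Oct4defSox2 at day 1. The differences from day 5 only sites grew with scores of at least 10, to −23.8 points for Oct4 S151M and −21.0 points for Oct4defSox2 at day 1, and with equal numbers of Oct4 summits, to −24.4 and −23.2 points. By day 5 Oct4defSox2 was found at 15 sites (0.710%), against 4.47% of all Oct4 sites and 14.8% of earlier-bound sites, and only 10 of the 406 day 1 sites were among them. That library had 1034 summits against 31060 at day 1. In all, 747 day 7 only sites (35.4%) had a summit of either Oct4 mutant at day 1 or 5, against 71.3% of all Oct4 sites, 93.5% of earlier-bound and 50.8% of day 5 only sites. Windows 2 kb away gave at most 1.16% for any of the 10 libraries.

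Where an Oct4 mutant was present, its signal was weaker than at earlier-bound sites. The deposited fold enrichment of Oct4 S151M over local background had a median of 6.89 at the 604 day 7 only sites, 14.0 at earlier-bound sites and 7.32 over its whole library. Among day 7 only sites it was 14.5 at the 76 with MORE but no SoxOct, 6.17 at the 182 with SoxOct and 6.58 at the 299 with no POU element. Oct6 M151S was found at 35 sites (1.66%, against 6.17% of all Oct4 sites), with a median fold enrichment of 2.42, the same as over its whole library and below the 2.90 of earlier-bound sites. A q-value of 0.05 was passed by 14 of the 35 (40%), against 21.2% of the whole library and 60.4% of its summits at earlier-bound sites.

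Sox2 was found at few of these sites. In Oct4-SK it occupied 73 or 3.45% (2.76 to 4.32) at day 1, against 14.7% of all Oct4 sites, and 96 or 4.54% (3.73 to 5.52) at day 5, against 6.92%. Earlier-bound sites were occupied at 19.3% and 21.0%, differences of −15.9 points (−18.1 to −13.8) and −16.5 points (−18.8 to −14.3), which shrank to −3.84 and −6.96 points with equal numbers of the strongest summits from each library. At day 5 the share of day 7 only sites did not differ beyond counting error from that of day 5 only sites, 4.90% (difference −0.353 points, −1.59 to 0.902), although it fell below it when summits were shared over 250 bp. The rise from day 1 to day 5 was 1.09 points (0.0793 to 2.12), and its interval crossed 0 under 4 of the alternative settings given in the closing section.

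The Sox2 shares with the other POU factors were lower still at day 1. In Oct4defSox2-SK they were 0.615% at day 1 (4.05% of all Oct4 sites) and 3.36% at day 5 (6.58%). In Oct6-SK they were 0.663% (3.56%) and 1.89% (3.46%). At day 5 Oct4-SK exceeded Oct6-SK by 2.65 points (1.77 to 3.60) and Oct4defSox2-SK by 1.18 points (0.201 to 2.19), the latter within counting error when repeats were left out or summits were shared over 250 bp, and the former, at 0.379 points, with equal numbers of the strongest summits. Sox2 was at 195 sites (9.23%) in at least 1 of its 6 libraries, against 23.2% of all Oct4 sites, 35.1% of earlier-bound and 15.8% of day 5 only sites, and none of these libraries was taken at day 7.

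**Figure D4:**
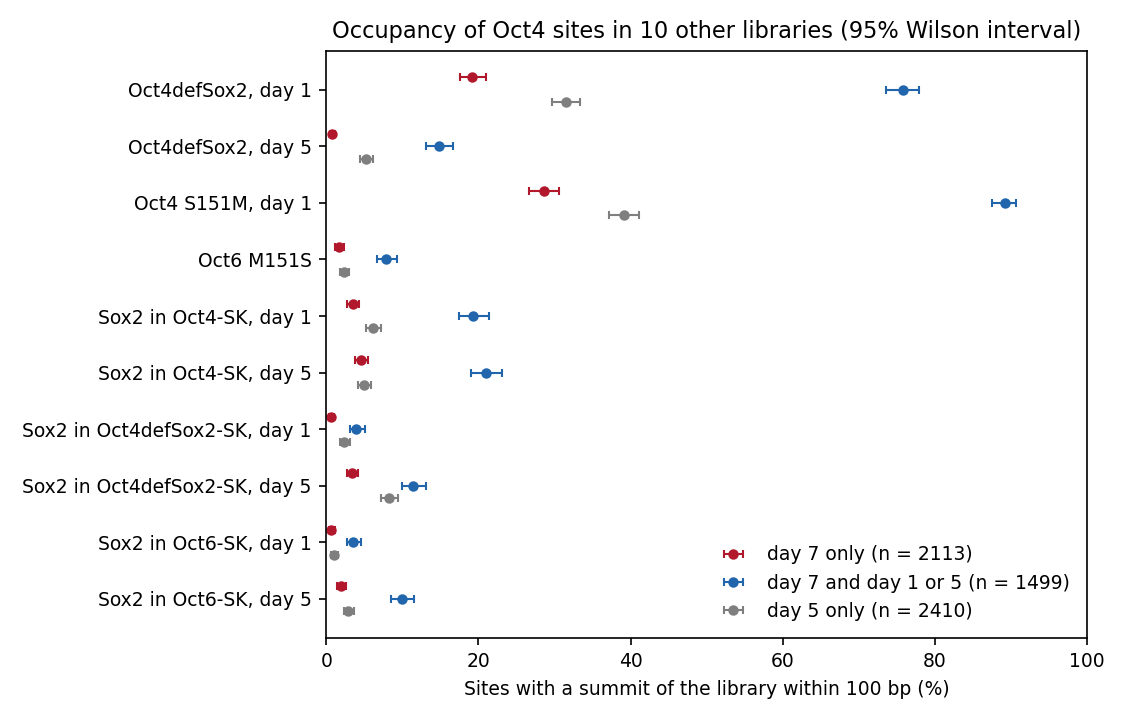
Share of Oct4 sites (%) with a summit of each of 10 other libraries within 100 bp, for day 7 only, earlier-bound and day 5 only sites, with 95% Wilson intervals. Day 7 only sites have the lowest share of the 3 sets in every library, from 0.615% to 28.6%, although for 3 libraries the difference from day 5 only sites lies within counting error.

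Sites with the SoxOct element were more often occupied by the Oct4 mutants of day 1, and for Sox2 the differences lay within counting error. Oct4 S151M was at 38.0% of day 7 only sites with SoxOct and 21.3% of those with no POU element, a difference of 16.7 points (11.9 to 21.6), and Oct4defSox2 at day 1 at 25.7% and 15.3%, a difference of 10.4 points (6.21 to 14.9). Stronger sites were also more often occupied by Oct4 S151M, at 39.8% of the 528 strongest and 14.4% of the 529 weakest, and the part of score in this difference was not tested. With an equal number of the strongest summits taken from each of the 10 libraries the differences were −0.143 points for Oct4 S151M and 0.0661 points for Oct4defSox2. The Oct4defSox2 difference also fell within counting error with scores of at least 10 throughout (4.13 points, −1.95 to 10.3) and with 1 fewer mismatch (4.96 points, −2.00 to 13.7). Sox2 in Oct4-SK at day 5 was at 4.18% and 4.85%, a difference of −0.675 points (−2.60 to 1.73), and for none of the 6 Sox2 libraries did the interval exclude 0 as counted here. Under 4 other settings Sox2 in Oct4defSox2-SK at day 5 was less frequent at SoxOct sites beyond counting error, by −1.85 to −3.20 points. AP-1 stood at 20% of the 135 sites with both an Oct4 mutant and Sox2, at 11.9% of the 612 with a mutant alone, at 8.33% of the 60 with Sox2 alone and at 6.43% of the 1306 with neither.

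The 5 sites shared by the most libraries scored between 4.19 and 23.4 at day 7. The intron of Creld1 (chr6:113487120-113487320, day 7 score 7.90), an intron of the noncoding gene Sox2ot 91.1 kb upstream of Sox2 (chr3:34559227-34559427, 7.69), an intron of Dock2 (chr11:34738895-34739095, 5.11) and a UTR of Kank2 (chr9:21768495-21768695, 4.19) were each occupied in 7 libraries. At the Sox2ot site, Oct4defSox2 scored 28.6 at day 1 and Oct4 S151M 11.8. Sox2 there scored 6.22 in Oct4-SK at day 1 and 29.4 at day 5, and at day 5 17.4 in Oct4defSox2-SK and 16.6 in Oct6-SK. Sox2 itself is the partner of Oct4 in the core pluripotency network. At the Kank2 site Sox2 was present in all 6 of its libraries, at scores from 12.9 to 47.6. An exon of the noncoding gene Gm26535 (chr10:37378020-37378220, day 7 score 23.4) was occupied in 6 and lay 866 bp from an earlier Oct4 summit.

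The 8 sites with the highest day 7 score differed in what else was bound there. The highest, in a UTR of Lars2 (57.6), had no POU element and no mutant Oct4, but had Sox2 summits of 43.4 in Oct4-SK and 91.1 in Oct4defSox2-SK, both at day 5. An intron of Cntln (44.2), a region near Gm6871 (42.3), an intron of Taf15 (42.1) and a region near Dtl (40.5) each held SoxOct with 1 or 2 mismatches. Each was occupied by at least 1 Oct4 mutant at day 1, and the Dtl region also by Sox2 in Oct4-SK at day 1 (8.41). An intron of Nes (41.1), which encodes the neural progenitor filament nestin, had no POU element and was occupied by both mutants and, at 6.46, by Sox2 in Oct4-SK at day 5. The remaining pair had no POU element and no Sox2. They are printed as strong sites without a match under these search rules, which allow the octamer no mismatch, on the plus strand, 60 bp to each side of the summit.
Zmat4 region, chr8:23562125-23562245: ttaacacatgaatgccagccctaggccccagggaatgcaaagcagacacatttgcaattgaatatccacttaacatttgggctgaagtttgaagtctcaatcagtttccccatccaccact
Aida intron, chr1:183299288-183299408: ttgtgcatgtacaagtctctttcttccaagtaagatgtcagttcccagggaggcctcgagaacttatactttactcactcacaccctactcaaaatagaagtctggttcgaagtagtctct

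The Zmat4 region scored 48.0 at day 7 and 40.9 for Oct4 S151M. The intron of Aida scored 45.8 and had no summit in the other 10 libraries.

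By position, day 7 only sites lay mostly away from promoters. Introns held 1055 (49.9%), intergenic sequence 971 (46.0%), UTRs 47, noncoding exons 26 and coding sequence 14, and over all Oct4 sites the shares were much the same, with 50.6% in introns and 45.3% intergenic. The median distance to the nearest coding start was 38.9 kb. Within 1 kb of an annotated start lay 130 sites or 6.15% (5.21 to 7.26), against 6.69% of all Oct4 sites, 12.4% of day 5 only sites (difference −6.21 points, −7.88 to −4.54) and 8.07% of earlier-bound sites (difference −1.92 points, −3.68 to −0.232). The difference from earlier-bound sites did not exceed counting error with starts within 5 kb, without repeats or with scores of at least 10, and that from day 5 only sites did not with scores of at least 10. The summit base was soft-masked at 409 sites or 19.4%, against 20.7% of all Oct4 sites and 29.4% of the flanks. The share was 3.28 points (0.742 to 5.76) above that of earlier-bound sites, 16.1%, but not beyond counting error with scores of at least 10. It did not differ beyond counting error from that of day 5 only sites, 18.8% (0.601 points, −1.69 to 2.90), and was below that of day 1 only sites, 22.8%.

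The genes near the sites are described by lists of known roles, set beside all coding genes. At least 1 day 7 only site lay within 50 kb of a start of 1962 of 21827 coding genes, or 8.99%, and 214 genes had 2 or more. These counts may follow gene density and gene length as well as binding, which was not tested, and no expression was measured here.

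Of 20 transcription factor genes of the pluripotency network, 5 (25%) had a day 7 only site, and the same number had an earlier-bound site, where the share over all coding genes was 6.72%. Pou5f1 had 2, downstream of its start. That 8.13 kb away, in an intron of Tcf19 (chr17:35514050-35514250, score 7.53), lay 155 bp from an earlier Oct4 summit and so close to the edge of the rule, and had an Oct6 M151S summit of 3.78. That 37.5 kb away (chr17:35543411-35543611, score 11.8) held SoxOct with 2 mismatches and had a Sox2 summit of 9.63 in Oct4-SK at day 5. Tfcp2l1, a factor of naive pluripotency, had a site in its intron 20.3 kb from the start (chr1:118648116-118648316, score 14.4) with SoxOct and no summit in the other libraries. These composite elements, with 2 mismatches each, read as follows.
Pou5f1, distal site, chr17:35543507-35543557, minus strand: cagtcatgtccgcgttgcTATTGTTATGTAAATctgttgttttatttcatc
Tfcp2l1 intron, chr1:118648162-118648212, minus strand: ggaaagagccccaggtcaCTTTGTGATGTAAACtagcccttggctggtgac

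Sites without SoxOct were found near other genes of this list. Klf2, a Krüppel-like factor of naive pluripotency, had a weak site 15.3 kb upstream (5.01). Sall4, a zinc finger partner of Oct4, had a site 49.6 kb away in an intron of Atp9a (11.2), and neither site was occupied elsewhere. Counted over 100 kb the share of the list was 50%, where 16.4% of all coding genes had a site, and counted by nearest coding gene it was again 50%, against 7.83% of all coding genes.

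Among 24 downstream effectors and markers of pluripotency, 4 (16.7%) had a site. That of Jam2, a junction adhesion molecule, lay 4.78 kb upstream and was the strongest (21.5), and that of Fbxo15, a gene known as a reporter of pluripotency, lay 0.256 kb upstream of the start (11.7). Utf1 (4.76) and Tdh (8.40) also had a site, the latter with Sox2 in Oct4-SK at day 5. None of the 4 held SoxOct. Of the 24 genes, 5 (20.8%) had an earlier-bound site, against 6.72% of all coding genes.

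Of signalling genes, 8 of 24 (33.3%) had a site within 50 kb, the highest share of the 10 lists at that distance, while over 100 kb and by nearest coding gene the share was 41.7%, below that of the pluripotency network. They included both chains of the LIF receptor, Lifr and Il6st, the BMP receptor Bmpr1a, and the BMP targets Id2 and Id3. The Lifr site (10.1) held SoxOct and an octamer and was occupied by both mutants at day 1. The strongest of the group was at Id3, 3.43 kb from its start (24.1), with no other summit, followed by Bmpr1a (19.6), with Oct4 S151M and with Sox2 in Oct4-SK at day 5. Nodal had a site 1.89 kb upstream (14.7) with Oct4 S151M, and Tcf7l1, a repressor of Wnt targets, had a site 6.00 kb upstream (12.6) with Oct4defSox2 at day 1. Spry2 had a site of 6.87. Earlier-bound sites lay within 50 kb of 6 of the 24 signalling genes (25%), against 6.72% of all coding genes.

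Chromatin regulators came next, with 7 of 24 (29.2%). The 5mC oxidase Tet3 had an intronic site with SoxOct (13.5) and no other summit. Trim28, the corepressor of KRAB zinc finger proteins, had a site 9.745 kb upstream of its coding start (17.3), likewise seen at day 7 alone. Phc1, a Polycomb subunit, had 2 sites upstream, at 2.05 kb (10.9, with SoxOct) and 5.85 kb (8.40), both with Oct4 S151M. Mtf2, a Polycomb cofactor, had 2 sites, that 112 bp from its start (7.41) occupied by Sox2 in 3 libraries. Jarid2 (14.6), Chd1 (13.8) and the H3K9 demethylase Kdm3a (9.21) each had a site occupied by Oct4 S151M. Earlier-bound sites lay near 5 of the 24 chromatin genes (20.8%), where the share over all coding genes was 6.72%.

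The lists of other lineages and states are to be read against the 8.99% of all coding genes. Neural genes had a site in 4 of 20 cases (20%), Nes, Zic1 (26.3), Olig2 (17.3) and Gbx2 (6.17), none with SoxOct, and that of Zic1 held MORE and was occupied by Oct4defSox2 at days 1 and 5. Extraembryonic genes had 3 of 17 (17.6%), Tfap2c, Fgfr2 and Pdgfra, and formative or primed genes 2 of 18 (11.1%), Zic5 and Etv5. The share of formative or primed genes was 27.8% over 100 kb (16.4% of all coding genes) and 33.3% by nearest coding gene (7.83%). Epithelial genes had 3 of 22 (13.6%), of which Cldn3 and Cldn4 share a site (19.6) with an AP-1 motif. Germline genes had 1 of 18, Prdm1. Earlier-bound sites lay near 5% of neural, 5.88% of extraembryonic and 11.1% of formative or primed genes. They lay near 4.55% of epithelial and 5.56% of germline genes, against 6.72% of all coding genes.

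Of mesenchymal genes 1 of 30 (3.33%) had a site within 50 kb, the lowest share at that distance. The order did not hold under the other rules, since the share was 16.7% over 100 kb and 20% by nearest coding gene, against 16.4% and 7.83% of all coding genes, and lay above that of germline genes (11.1% and 5.56%). The gene was Fn1, which encodes the matrix protein fibronectin and had 3 sites, scoring 9.61, 10.8 and 9.21. By comparison 12 of the 30 had a site bound at day 1 alone, where the share over all coding genes was 16.7%. A site bound at day 5 alone lay near 7, where that share was 11.6%. Earlier-bound sites lay near 0 of the 30, where it was 6.72%. A low share was thus also seen for the other day 7 sites. In all, 38 listed genes had 43 day 7 only sites, with a median score of 10.1. Of these sites 5 (11.6%) held SoxOct and 19 (44.2%) had no summit in the other 10 libraries, against 22.7% and 61.3% over the whole set.

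**Figure D5:**
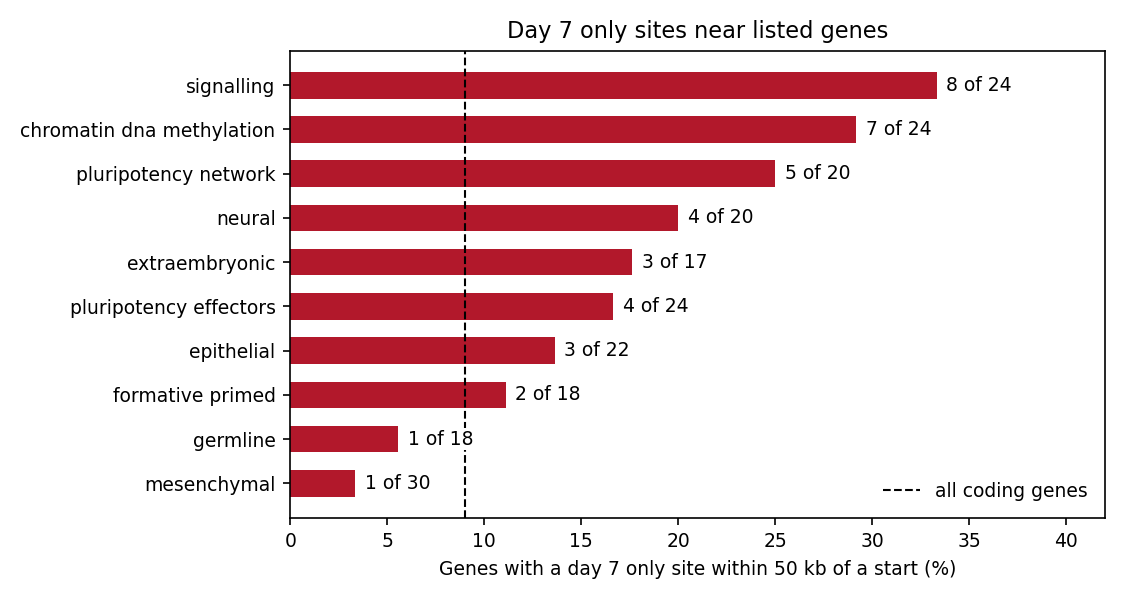
Share of genes (%) of each of 10 lists with a day 7 only site within 50 kb of a start, with the number of genes beside each bar; the dashed line is the share over all coding genes, 8.99%. At this distance signalling, chromatin and pluripotency network genes have the highest shares and mesenchymal genes the lowest, an order that changes over 100 kb and by nearest coding gene.

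Most day 7 only sites stood apart from each other, with 1923 (91.0%) having no other within 10 kb, but a few gene families collected several. The coding genes with the most sites within 50 kb were Zfp985 and Gm16503, with the same 8 sites between chr4:147508478 and 147586944, then Zfp981 and Zfp982 with 6 each and Zfp992 and Gm21411 with 5 each. All 6 lie on the distal part of chromosome 4, where zinc finger genes are clustered. Scores of the 8 sites around Zfp985 ran from 4.33 to 12.7, and 2 held SoxOct. No earlier-bound and no day 5 only site lay within 50 kb of Zfp985, and 1 day 1 only site did. Outside that cluster, the chemokine receptor genes Ccr1 and Ccr1l1 shared 4 sites within 3.59 kb (scores 8.07 to 11.4), and Hjurp, Dnajb3 and Mroh2a had 4 each.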

How the data were processed

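Chromatin immunoprecipitation and sequencing of 13 libraries was analysed, each of them the only library of its group, and 3 input libraries were not analysed here. Per the study's methods and the submitters' processing notes, paired-end reads were aligned to mm10 with Bowtie2 2.2.5, low-quality and duplicate reads were removed, and summits were called in each library on its own with MACS2. The deposited score of a summit is the −log10 p-value the authors obtained from MACS2. Peak tables deposited for 2 of the libraries, Oct6 M151S and Oct4 S151M, hold in addition a ratio of signal to local background (fold enrichment) and a −log10 q-value, and both were used as given. Read depths were not examined here, although the study reports library statistics in a supplementary table. The number of summits is given instead.

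Of 227116 summits, 154 on unplaced or mitochondrial sequence were dropped. Sites were joined within 100 bp, with the day 7 summit as the centre, and no further filter was applied. Motifs were searched as consensus letters on both strands in windows of 201 bp of the mm10 sequence (RefSeq copy), and flanks were windows centred 2 kb to each side. The octamer is contained in the SoxOct consensus, so a match to one can be a match to both. Besides the motifs spelled out beside their results, MORE+1, the elements of Sox, KLF, STAT, E-box, GRHL, TEAD, ETS, NFY, TFAP2, CTCF and NRF1 were searched, 19 in all. Genes came from the basic annotation of GENCODE M21, and a coding start was that of a protein-coding transcript. Gene distances were taken to the nearest such start.

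Shares carry 95% Wilson intervals, and differences carry Newcombe intervals, paired where the same sites were compared. They cover counting error only and no p-value was computed. Scripts were tested on simulated data and used pandas 2.3.3, numpy 2.4.6, matplotlib 3.10.9 and scipy 1.17.1 under Python 3.11.15.

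Named were the 8 sites with the highest day 7 score, the 8 highest with an exact SoxOct, the 5 occupied in the most libraries, every site within 50 kb of a pluripotency network gene, up to 12 coding genes with at least 4 sites, listed genes with a site, and the 10 8-mers with the highest ratio of window to flank share. A result that this rule would name is not reported here. The sites with ESRRB, the AP-1 and ESRRB comparisons, the window on chromosome 4 and the Platr genes were added after values had been seen. The members and the 10 gene lists were chosen with earlier results of these data known. Alternatives changed the joining distance, the score threshold, the number of summits taken, the mismatches, the windows and the treatment of repeats.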

Additional observations from a re-analysis of the deposited data

How the results depend on the processing

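Over 15 other settings, 444 of 487 recomputed values stayed on their side of the threshold, and 32 of 55 results did so under every setting run. Of the 444, 22 changed sign with both intervals holding 0. The cause of the changes below was not tested. No paired analysis was possible because each group had 1 library, so that samples could not be paired by replicate number, and the paired intervals given pair sites. Differences are in percentage points, day 7 only sites minus the others. With scores of at least 10 in every library, the rule applied anew gave 884 day 7 only sites. Only 722 of the 2113 sites scored at least 10, so the 884 include sites whose day 1 or 5 summits scored lower. SoxOct was then 3.06 higher than at earlier-bound sites. In that setting the differences from earlier-bound sites were −0.336 for Oct6 M151S, −2.43 for promoters and 2.14 for repeats. Those from day 5 only sites were −2.03 for promoters and, for Sox2, −0.380 (Oct4-SK, day 1), −0.643 (Oct4defSox2-SK, day 1) and −0.0201 (Oct6-SK, day 5). SoxOct sites minus sites without a POU element gave 4.13 for Oct4defSox2 at day 1 and −2.38 for Sox2 in Oct4defSox2-SK at day 5, Sox2 in Oct4-SK rose by 1.36 from day 1 to day 5, and the extraembryonic and germline lists had sites at 5.88% and 0% of genes. With equal numbers of the strongest summits from the other libraries, SoxOct sites minus sites without a POU element gave −0.143 for Oct4 S151M and 0.0661 for Oct4defSox2 at day 1. The differences from day 5 only sites were then −0.262 (Sox2 in Oct4-SK, day 1) and −0.233 (Sox2 in Oct6-SK, day 5), and Sox2 at day 5 was 0.379 higher in Oct4-SK than in Oct6-SK. With equal numbers of the strongest Oct4 summits, the differences from day 5 only sites were −1.61 for Oct6 M151S and −0.636 for Sox2 in Oct6-SK at day 1. The SoxOct difference for Sox2 in Oct4defSox2-SK at day 5 was −2.40, and the rise of Sox2 in Oct4-SK was 0.823. With 50 bp for joining and sharing, these last were −1.85 and 0.727, and the differences from day 5 only sites were −0.638 for Oct6 M151S and −0.221 for Sox2 in Oct6-SK at day 5. With 250 bp, the differences from day 5 only sites were −1.78 for Oct6 M151S, −1.56 for Sox2 in Oct4-SK and −0.936 for Sox2 in Oct6-SK, both at day 5. The rise of Sox2 in Oct4-SK was then 0.895, and its excess over Oct4defSox2-SK at day 5 was 0.646. With no earlier summit within 1 kb, the Oct6 M151S difference from day 5 only sites was −1.15, and without sites of all 3 antibodies that of Sox2 in Oct6-SK at day 5 was −0.841. With 1 fewer mismatch the SoxOct difference for Oct4defSox2 at day 1 was 4.96, and with 1 more that for Sox2 in Oct4defSox2-SK at day 5 was −3.20. The promoter difference from earlier-bound sites was −2.36 over 5 kb and −1.74 without soft-masked sites, where the day 5 excess of Sox2 in Oct4-SK over Oct4defSox2-SK was 1.12. Over 100 kb, 50% of pluripotency network genes had a site. By nearest coding gene it was 50%, with 33.3% of formative or primed and 20% of mesenchymal genes. The number of summits per library, from 1034 to 101151, limits what a missing summit shows.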

Other observations

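Day 7 only sites were concentrated in the zinc finger gene cluster of distal chromosome 4. In a window of 2.25 Mb, chr4:145436776-147686944 (mm10), drawn after the gene counts had been seen to reach 100 kb beyond the outermost sites near the 7 genes of this chromosome among the 12 with the most sites, lay 42 of the 2113 day 7 only sites, or 1.99% (1.47 to 2.68). The window is 0.0826% of the genome. It held 3 of the 1499 earlier-bound sites (0.200%), 1 of the 2410 day 5 only sites (0.0415%) and 12 of the 5891 day 1 only sites (0.204%). The window contains 20 coding genes, 16 of them named Zfp. Of the 42 sites, 34 lay in introns, 2 held SoxOct and 1 held AP-1. Their median score was 8.24, and 40 (95.2%) had no summit in the other 10 libraries, against 61.3% of all day 7 only sites. The same held in this window for 3 of 3 earlier-bound sites, 1 of 1 day 5 only site and 9 of 12 day 1 only sites. The summit base was soft-masked at 9 of them. In the 10 libraries of other factors or antibodies the window held between 1 and 7 summits. For Oct4defSox2 at day 5 these were 6 of only 1034, or 0.580% (0.266 to 1.26), also above the window's share of the genome, while for the other 9 libraries the share was at most 0.0863%. No 25 bp stretch of the central 51 bp of these 42 sites recurred in the window of another day 7 only site, whereas this was the case at 115 of the 2113 sites (5.44%), 104 of them with a soft-masked summit. Counted within each set, such sharing was found at 3.54% of earlier-bound and 2.57% of day 5 only sites. How uniquely reads map in this cluster was not tested, and the read length cannot be told apart from the day.

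Of the 14 groups of 3 or more day 7 only sites in which neighbours lay within 10 kb, 2 lay at genes named Platr, for pluripotency-associated transcript, most of which are annotated as long noncoding. Of 30 such genes in the annotation, 4 (Platr10, Platr11, Platr16 and Platr23) had day 7 only sites in the gene or within 5 kb of it, 13 sites in all. Earlier-bound sites were found at 0 of the 30, day 5 only sites at 2 and day 1 only sites at 1. By the same rule, day 7 only sites were found at 251 of 9930 noncoding genes of like annotation (2.53%), earlier-bound sites at 2.15%, day 5 only sites at 3.26% and day 1 only sites at 6.44%. At Platr10, 3 sites lay between chr3:75650963 and 75652307 and scored 6.87 to 13.5. At Platr16, 3 sites lay between chr4:145405842 and 145410650, beside the window above, and scored 4.47 to 17.5. The noncoding gene Neat1 had another such group of 3 (scores 6.14 to 8.40). The Platr genes were chosen after the groups of sites had been seen, and no test was made.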
